A study of Mus musculus with 26 samples.

Results

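The members of the NF-kB (nuclear factor kappa B) group described here were 9 genes, taken by symbol from the 24411 gene lines of the read count table. They comprise the 5 genes that encode NF-kB subunits (Rel, Rela, Relb, Nfkb1 and Nfkb2) and 4 genes for regulators or targets of the pathway (Nfkbie, Traf1, Birc3 and Bcl3). On mm10 (GENCODE M21) Rel spans chr11:23736847-23770970, Rela chr19:5637483-5648130, Relb chr7:19606217-19629438, Nfkb1 chr3:135584655-135691547 and Nfkb2 chr19:46304320-46312385. Nfkbie spans chr17:45555703-45563169, Traf1 chr2:34941750-34961772, Birc3 chr9:7848699-7873186 and Bcl3 chr7:19808462-19822770. All 9 passed the filter on low counts and were among the 12227 genes tested. Expression values were available for 26 poly(A) RNA-seq libraries in 13 groups of 2, from T cells of mouse lymph nodes and spleen on the C57BL6/J strain, sorted freshly.

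BATFKO Treg came from Foxp3-IRES-hCD2.Batf-/- mice, which lack Batf in every cell, and their WT Treg came from Foxp3-IRES-hCD2 mice. Both were sorted as CD4+hCD2+ cells, hCD2 being a human CD2 surface reporter linked to Foxp3, the lineage factor of regulatory T cells (Treg). WT conventional T cells (Tconv) of the same set were CD4+hCD2- cells. Their title names Tconv while their cell type label says Treg, and the title was followed here. BATFcKO Treg YFP carried Batfflox/flox with a YFP-tagged Cre recombinase driven by one Foxp3 allele and hCD2 on the other, and WT Treg YFP carried the same 2 Foxp3 alleles. Both were sorted as CD4+YFP+hCD2-. Foxp3R397W Treg and Foxp3KO Treg (allele Foxp3fs101) carried the mutant Foxp3 tagged with hCD2 beside a wild-type Foxp3-IRES-GFP allele, so these mice also held GFP+ cells with normal Foxp3. Each had its own WT control with a tagged wild-type allele, and all 4 groups were sorted as CD4+hCD2+GFP-. From Foxp3-IRES-hCD2 mice, effector Treg (eTreg) were CCR7loCD62Llo and central Treg (cTreg) were CCR7hiCD62LhiCD44lo within the CD4+hCD2+ gate. The hCD2- cells were split the same way into effector (Teff) and naive (Tnaive) conventional cells. The labels give no age and leave it unsaid whether replicate libraries came from separate animals, so p-values measure only the spread between these samples.

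NF-kB factors are dimers of subunits that share a Rel homology domain. In resting cells they are held in the cytoplasm by inhibitors of the IkB family, and antigen receptor, costimulatory and TNF receptor signals release them through the IkB kinase (IKK) complex. In the canonical route the p50 product of Nfkb1 pairs with RelA or c-Rel, and in the non-canonical route the p52 product of Nfkb2 pairs with RelB. In T cells, c-Rel is known for its role in the induction of Foxp3 during Treg development, and c-Rel and RelA are known for maintaining effector Treg. The genes for several pathway components are themselves NF-kB targets, which gives the pathway feedback loops.

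Promoter sequences are shown for 4 members, since Rel and Birc3 were called in all 3 comparisons of Treg with conventional cells, and Nfkb2 and Nfkbie in both comparisons of effector with resting cells, described further on. Each is the 250 bases before a RefSeq transcription start, 5′ to 3′ on the gene's strand, on GRCm38.p6. Rel is chr11:23770970-23771219 on the minus strand, the first of 3 Nfkb2 starts is chr19:46304487-46304736 on the plus strand, Nfkbie is chr17:45555450-45555699 on the plus strand and Birc3 is chr9:7873171-7873420 on the minus strand. Capitals mark matches on either strand to a wide kB pattern, GGG and CC with any 5 bases between them, and overlapping matches are merged.
Rel: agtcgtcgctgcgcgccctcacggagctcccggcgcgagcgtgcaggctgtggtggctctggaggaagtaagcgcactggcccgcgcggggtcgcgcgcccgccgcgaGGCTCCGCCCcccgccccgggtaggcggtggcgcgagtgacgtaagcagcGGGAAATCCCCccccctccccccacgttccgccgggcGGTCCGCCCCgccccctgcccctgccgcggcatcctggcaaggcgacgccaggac
Nfkb2, first start: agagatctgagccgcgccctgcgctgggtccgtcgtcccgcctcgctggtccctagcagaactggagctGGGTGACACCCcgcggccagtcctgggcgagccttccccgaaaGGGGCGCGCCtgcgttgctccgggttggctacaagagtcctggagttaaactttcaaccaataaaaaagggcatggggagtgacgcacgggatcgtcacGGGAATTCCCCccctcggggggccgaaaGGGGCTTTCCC
Nfkbie: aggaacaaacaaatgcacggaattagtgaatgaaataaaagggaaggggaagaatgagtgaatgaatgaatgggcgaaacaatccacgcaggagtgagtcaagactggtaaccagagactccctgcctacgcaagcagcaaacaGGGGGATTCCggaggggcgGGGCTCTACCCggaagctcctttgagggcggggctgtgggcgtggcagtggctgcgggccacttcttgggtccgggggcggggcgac
Birc3: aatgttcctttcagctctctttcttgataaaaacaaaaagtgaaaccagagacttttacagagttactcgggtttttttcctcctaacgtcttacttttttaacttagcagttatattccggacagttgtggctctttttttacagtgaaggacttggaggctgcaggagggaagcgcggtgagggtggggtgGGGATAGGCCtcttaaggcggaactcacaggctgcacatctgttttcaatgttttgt

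The promoter table held 7 of the 9 members with 9 starts in all, 3 of them of Nfkb2; Relb and Nfkb1 are named only. The wide pattern was present in 8 of the 9 sequences, and in 45.8% of the 32851 promoters of the same length. A narrower pattern, GGG and TTTCC with any 2 bases between them, was present in 3, against 1.41% of all promoters. Rel held it on the other strand 91 to 82 bases before the start, the first Nfkb2 start at 11 to 2 bases before it, and the third Nfkb2 start at 225 to 216 bases before it. Every narrow match is also a wide match, and an even-sided site can match on both strands, so the wide match counts of 5 in Rel, 9 in the first Nfkb2 promoter, 3 in Nfkbie and 1 in Birc3 include overlaps. The AP-1 motif TGANTCA was found in the second Nfkb2 promoter and in Nfkbie, and in 6.75% of all promoters. The forkhead motif GTAAACA was in 0 of the 9, and in 3.17% of all promoters. A match is a string of letters in this window and was not tested as a binding site.

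**Figure D1:**
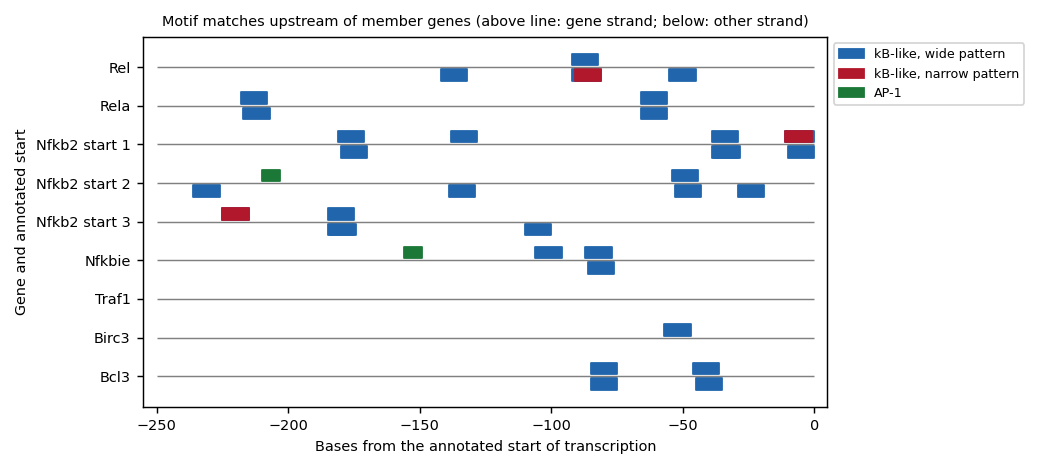
Positions of motif matches in the 9 member promoters, in bases before the RefSeq start (x axis), one line per promoter, with matches on the gene's strand above the line and on the other strand below it. Nfkb2 is drawn at 3 starts, the wide kB motif is present in 8 of 9 lines, and Traf1 has no match.

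Library totals ran between 5615929 and 34613707 reads, the 4 libraries of the Foxp3KO set being the deepest, and the members were well counted (193 to 17627 reads per library). The targeted genes followed the labels. Batf was at 7.22 and 6.83 CPM (reads of the gene scaled to library size and composition) in BATFKO Treg, against 46.1 and 82.9 CPM in WT Treg, and at 19.5 and 15.9 CPM in BATFcKO Treg YFP, against 67.8 and 58.5 CPM in WT Treg YFP. Foxp3 was at 109 and 113 CPM in Foxp3KO Treg, against 348 and 326 CPM in its control, whereas the count of Foxp3 cannot show the R397W change. Replicate libraries of WT Treg, BATFKO Treg and Tconv stood further apart than others, with chi-square values of 22.7, 29.9 and 21.7 for each degree of freedom, against 3.0 to 7.79 in the other groups. In all 3 of those groups the library numbered 2 held more Rela, Relb, Nfkb2, Nfkbie, Traf1 and Bcl3 than the library numbered 1. The Teff libraries held more reads of 4 lists of other cell types than any other group. Their 12 myeloid and dendritic genes summed to 93.8 to 269 CPM (12.5 to 33.3 CPM elsewhere), their 10 plasmacytoid dendritic genes to 288 to 722 CPM (80.1 to 253 CPM elsewhere) and their 10 CD8 and NK genes to 288 to 390 CPM (22.8 to 80.4 CPM elsewhere), with 0 genes of these 3 lists at 0. Their 10 B cell genes summed to 69.2 to 77.6 CPM, next to 62.5 to 63.6 CPM in eTreg and 7.96 to 44.5 CPM elsewhere.

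Among the subunits, Rela, which encodes the RelA (p65) subunit with a transactivation domain, varied least. Its group means differed by 1.47-fold over the 13 groups, and all 12 pairs of groups next to each other in that order overlapped in their libraries. Per kilobase of all annotated exons, Rela was the highest member in all 13 groups, with a mean of 65.7 RPKM (CPM per kilobase). With the longest principal transcript as the length, Nfkb1 came first and Rela second, so the order of Rela and Nfkb1 depends on the length used. Rel, which encodes c-Rel, was the lowest member per kilobase in the mean over the 13 groups with either length (13.2 RPKM). By exon length it was lowest in each group outside the Foxp3KO set, where it ranked 7 of 9 in both groups. Rel also varied most, by 4.83-fold between group means.

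Rel was highest in WT Treg of the Foxp3KO set at 167 CPM, followed by BATFKO Treg at 160 CPM, WT Treg of the R397W set at 145 CPM, WT Treg at 143 CPM and Foxp3KO Treg at 137 CPM. A middle band held Foxp3R397W Treg at 87.3 CPM, Tconv at 84.1 CPM, WT Treg YFP at 81.4 CPM and BATFcKO Treg YFP at 78.1 CPM. The sorted populations were lowest, with cTreg at 64.2 CPM, eTreg at 62.9 CPM, Teff at 39.7 CPM and Tnaive at 34.6 CPM. Of the 12 pairs of groups next to each other in this order, 8 had overlapping libraries. The sorted libraries lay below those of all other sets, and several of the other sets overlapped. The 13 immediate early and stress genes (Fos, Jun, Egr1, Hspa1a and others) differed in the same sets. They summed to 815 to 2147 CPM in the 8 sorted libraries, 3082 to 9347 CPM in the YFP libraries and 4530 to 15551 CPM in the other libraries. Their part in the level of Rel was not tested, groups of different sort sets were not tested against each other, and every comparison that follows stays within a set.

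**Figure D2:**
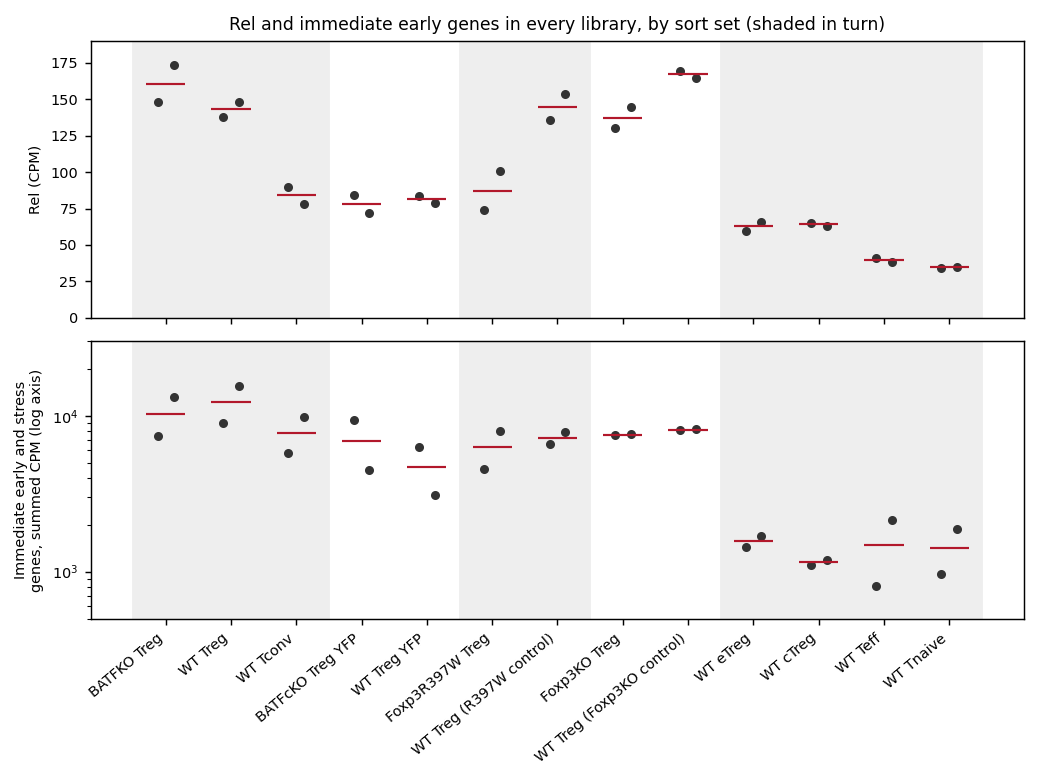
Rel in CPM and the summed CPM of the 13 immediate early and stress genes on a log axis, for all 26 libraries by sort set (points are libraries). The sorted set is lowest for both measures, with Rel between 33.9 and 65.9 CPM there.

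The other members lay between these extremes. Nfkb2, the p100/p52 precursor gene, ranged over 3.09-fold between group means, with Tnaive lowest at 101 CPM and BATFKO Treg highest at 312 CPM. Bcl3, a nuclear IkB protein that binds p50 and p52, ranged over 2.31-fold. Relb and Nfkbie, which encodes the inhibitor IkB epsilon, both ranged over 2.21-fold, and Traf1, an adaptor of TNF receptors, over 2.16-fold. Birc3, the ubiquitin ligase cIAP2, ranged over 1.94-fold, with Teff lowest at 98.7 CPM. Nfkb1, the p105/p50 precursor gene, ranged over 1.76-fold.

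Comparing eTreg with cTreg asks how the pathway differs between effector and resting Treg. Relb, Nfkb1, Nfkb2 and Nfkbie rose in eTreg, and Birc3 fell. These were 4 of 9 members higher, where 18.8% of all tested genes were higher, and 1 of 9 lower, where 12.3% were lower. The median log2 fold change was 0.23 over the 9 members and 0.006 over all tested genes. The members that rose include both non-canonical subunit genes, the p50 precursor gene and an inhibitor.

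Relb, the subunit of the non-canonical dimer, was at 127 and 158 CPM in eTreg, against 74.2 and 80.9 CPM in cTreg. Nfkb2 was at 235 and 262 CPM in eTreg, against 148 and 148 CPM in cTreg. Nfkbie was at 87.9 and 96.1 CPM in eTreg, against 52.6 and 52.9 CPM in cTreg. The eTreg libraries lay above the cTreg libraries for each of these genes, with log2 fold changes of 0.88 ± 0.25 for Relb (SE; edgeR adjusted p = 0.0119), 0.75 ± 0.21 for Nfkb2 (adjusted p = 0.0104) and 0.80 ± 0.18 for Nfkbie (adjusted p = 0.00225). The change of Nfkb1 was smaller, with 620 and 644 CPM in eTreg against 523 and 514 CPM in cTreg (log2 fold change 0.29 ± 0.09, edgeR adjusted p = 0.0263). Birc3 went the other way, at 129 and 136 CPM in eTreg against 167 and 173 CPM in cTreg (-0.36 ± 0.08, edgeR adjusted p = 0.00119), again without overlap. Rel was close in the groups, at 59.9 and 65.9 CPM in eTreg and 65.4 and 63.1 CPM in cTreg (-0.03). Rela, Traf1 and Bcl3 differed by log2 fold changes of 0.10, 0.23 and 0.05 and were not called. The 10 B cell genes summed to 62.5 to 63.6 CPM in eTreg, against 15.4 to 16.4 CPM in cTreg. Most of the sum in eTreg was Cd22, at 40.5 and 37.4 CPM in eTreg against 0.19 and 0.30 CPM in cTreg. Cd79b followed, at 19.2 and 22.2 CPM in eTreg against 10.8 and 12.2 CPM in cTreg. The defining B cell gene Ms4a1 was at 0.19 and 0.48 CPM in eTreg, against 0.38 and 0.20 CPM in cTreg. The sums of the myeloid and dendritic, plasmacytoid dendritic, and CD8 and NK genes were 18.3 to 24, 204 to 211 and 40.1 to 42.6 CPM in eTreg, against 12.6 to 15.9, 136 to 148 and 31.5 to 40.8 CPM in cTreg. The part of these reads in the member values was not tested.

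Nfkbie and Birc3 stayed called in eTreg against cTreg without any 1 library. The call of Relb was lost without cTreg 1 (0.81, adjusted p = 0.0945) or eTreg 2 (0.68, 0.143), and that of Nfkb2 without cTreg 1 (0.75, 0.0644), cTreg 2 (0.75, 0.061) or eTreg 2 (0.63, 0.107). That of Nfkb1 was lost without cTreg 1 (0.29, adjusted p = 0.108), cTreg 2 (0.27, 0.126), eTreg 1 (0.28, 0.112) or eTreg 2 (0.23, 0.234).

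Comparing Teff with Tnaive sets the same 2 states against each other in conventional cells. Relb, Nfkb1, Nfkb2 and Nfkbie rose here too. These were 4 of 9 members higher, where 21.2% of all tested genes were higher and 14.0% lower, and the median log2 fold change was 0.32 over the members and 0.009 over all tested genes. Nfkbie was at 79.7 and 75.9 CPM in Teff, against 47.3 and 42.4 CPM in Tnaive (0.79 ± 0.19, edgeR adjusted p = 0.00227). Nfkb2 was at 162 and 164 CPM in Teff, against 104 and 98.5 CPM in Tnaive (0.69 ± 0.21, edgeR adjusted p = 0.0166). Relb was at 99.8 and 120 CPM in Teff, against 59.4 and 69.4 CPM in Tnaive (0.77 ± 0.26, edgeR adjusted p = 0.0244). No library overlapped between the groups for these members, which is not a test with 2 libraries in each. Nfkb1 was at 439 and 484 CPM in Teff, against 375 and 367 CPM in Tnaive (0.32 ± 0.09, edgeR adjusted p = 0.0131). Traf1 had a log2 fold change of 0.52 ± 0.20 with an edgeR adjusted p of 0.0503, just outside the threshold of 0.05, and DESeq2 gave 0.0473. Rel, Rela, Birc3 and Bcl3 were not called (0.20, 0.04, -0.13 and 0.03).

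Only Nfkbie of these 4 calls in Teff stayed without any 1 library. The call of Relb was lost without Tnaive 1 (0.66, adjusted p = 0.156), Tnaive 2 (0.88, 0.0588) or Teff 2 (0.63, 0.158), and that of Nfkb1 without Tnaive 1 (0.33, 0.054), Tnaive 2 (0.30, 0.0882) or Teff 2 (0.24, 0.152). That of Nfkb2 was lost without Tnaive 1 (0.73, adjusted p = 0.0616), Tnaive 2 (0.65, 0.0973), Teff 1 (0.70, 0.0545) or Teff 2 (0.67, 0.0692). The B cell genes summed to 69.2 to 77.6 CPM in Teff, against 10.4 to 10.7 CPM in Tnaive, of which Cd22 made up 57.4 and 68.5 CPM in Teff. Ms4a1 was at 0.98 and 0.82 CPM in Teff, against 0.41 and 0.60 CPM in Tnaive. The part of the B cell, myeloid, plasmacytoid dendritic, CD8 and NK reads of the Teff libraries in the member values was not tested.

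**Figure D3:**
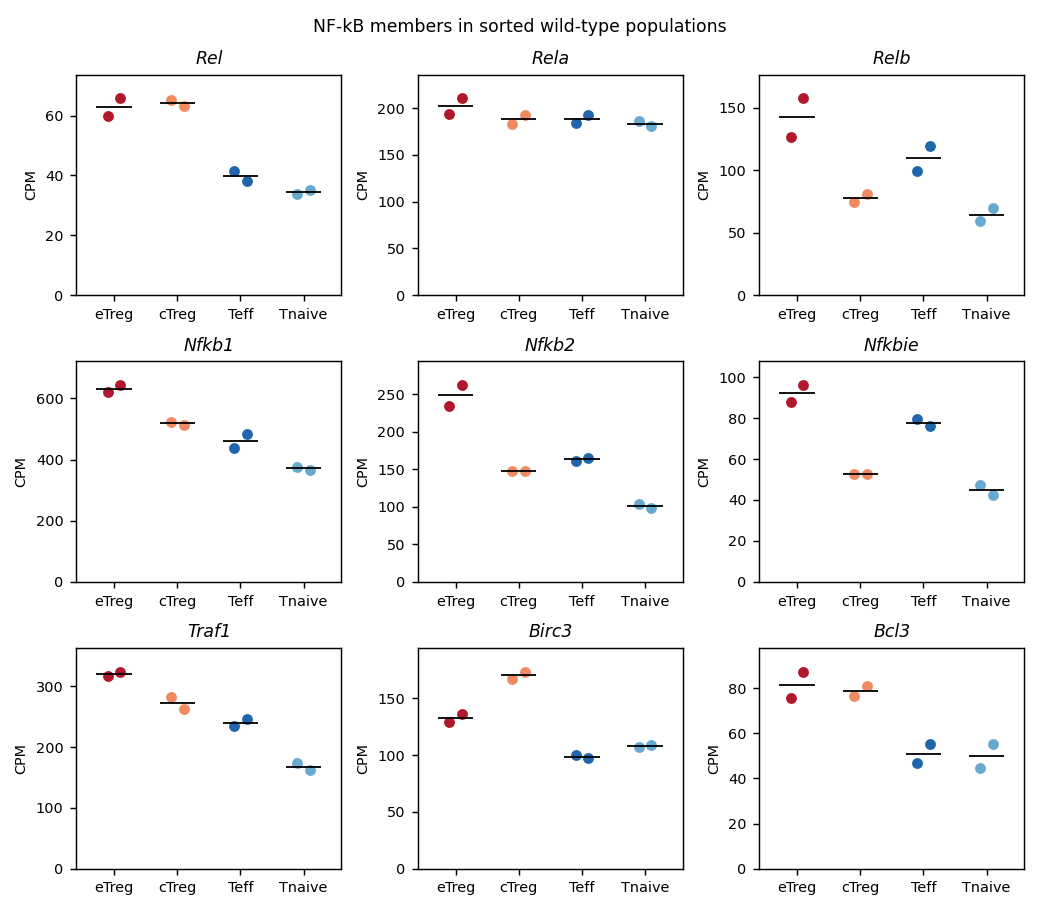
CPM of the 9 members in eTreg, cTreg, Teff and Tnaive (points are the 2 libraries of a group, the line is their mean; axes start at 0). For Nfkbie the eTreg libraries (87.9 and 96.1 CPM) lie above the cTreg libraries (52.6 and 52.9 CPM), whereas for Rel both Treg groups lie above both conventional groups.

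Whether the effector change differed between Treg and conventional cells was tested as the difference of the 2 log2 fold changes. By edgeR 0 of 9 members were called for that difference and 0 had an unadjusted p under 0.05, while 5.42% of all tested genes were called. DESeq2 called 0 members as well. The differences were within 0.11 of 0 for Relb, Nfkb1, Nfkb2, Nfkbie, Rela and Bcl3, with SEs between 0.13 and 0.36, so changes of the size seen for Nfkb1 could not be resolved for Relb. Birc3 came nearest the threshold, at -0.23 ± 0.11 (unadjusted p = 0.0511, adjusted p = 0.361).

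Treg were next compared with conventional cells of the same state. In cTreg against Tnaive, Rel, Nfkb1, Traf1 and Birc3 rose. These were 4 of 9 members higher, where 7.91% of all tested genes were higher and 4.29% lower, and the median log2 fold change was 0.55 over the members and 0 over all tested genes. Rel was at 65.4 and 63.1 CPM in cTreg, against 33.9 and 35.3 CPM in Tnaive (0.89 ± 0.13, edgeR adjusted p = 8.17e-05). Birc3 was at 167 and 173 CPM in cTreg, against 107 and 109 CPM in Tnaive (0.65 ± 0.08, edgeR adjusted p = 4.49e-06). Both genes were without overlap between the groups, which is not a test with 2 libraries in each, and Rel differed by 1.86-fold. Nfkb1 was at 523 and 514 CPM in cTreg, against 375 and 367 CPM in Tnaive (0.48 ± 0.09, edgeR adjusted p = 0.00129). Traf1 was at 283 and 263 CPM in cTreg, against 173 and 163 CPM in Tnaive (0.70 ± 0.20, edgeR adjusted p = 0.0237). Rel, Nfkb1 and Birc3 stayed called without any 1 library. Traf1 lost its call without cTreg 1 (0.65, adjusted p = 0.15), cTreg 2 (0.75, 0.0732), Tnaive 1 (0.75, 0.1) or Tnaive 2 (0.65, 0.169). Bcl3 and Nfkb2 had log2 fold changes of 0.66 (adjusted p = 0.055) and 0.55 (0.12), and Relb, Nfkbie and Rela of 0.27, 0.23 and 0.04. A fit to these 4 libraries alone called 7 members higher, adding Relb, Nfkb2 and Bcl3. Of all genes tested in that fit 25.9% were called in either direction, 1641 higher and 1225 lower.

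In eTreg against Teff, Rel, Nfkb1, Birc3 and Bcl3 rose, 4 of 9 members, where 8.21% of all tested genes were higher and 7.26% lower. The median log2 fold change was 0.43 over the members and 0.001 over all tested genes. Rel was at 59.9 and 65.9 CPM in eTreg, against 41.3 and 38.1 CPM in Teff (0.66 ± 0.13, edgeR adjusted p = 0.00146). Birc3 was at 129 and 136 CPM in eTreg, against 99.96 and 97.3 CPM in Teff (0.43 ± 0.08, edgeR adjusted p = 0.00051). Bcl3 was at 75.5 and 87.2 CPM in eTreg, against 46.7 and 55.2 CPM in Teff (0.67 ± 0.22, edgeR adjusted p = 0.0406). Each pair of groups was free of overlap, which is not a test with 2 libraries in each. Nfkb1 was at 620 and 644 CPM in eTreg, against 439 and 484 CPM in Teff (0.45 ± 0.09, edgeR adjusted p = 0.00203). Nfkb2 (0.61, adjusted p = 0.0609), Traf1 (0.41), Relb (0.38), Nfkbie (0.24) and Rela (0.10) were not called. The myeloid and dendritic genes summed to 93.8 to 269 CPM in Teff, against 18.3 to 24 CPM in eTreg. The CD8 and NK genes summed to 288 to 390 CPM in Teff, against 40.1 to 42.6 CPM in eTreg. The part of these reads in the member values was not tested. Rel and Birc3 stayed called without any 1 library, whereas Nfkb1 lost its call without Teff 1 (0.38, adjusted p = 0.0541). Bcl3 lost it without eTreg 1 (0.77, adjusted p = 0.0809), eTreg 2 (0.56, 0.254), Teff 1 (0.56, 0.283) or Teff 2 (0.80, 0.0714).

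The set of unfractionated cells gave a further comparison of WT Treg with Tconv, in other libraries. Rel, Nfkb1, Nfkb2, Nfkbie, Traf1 and Birc3 rose, 6 of 9 members, where 12.1% of all tested genes were higher and 6.68% lower. The median log2 fold change was 0.64 over the members and -0.002 over all tested genes. Rel was at 138 and 148 CPM in WT Treg, against 89.9 and 78.4 CPM in Tconv (0.76 ± 0.13, edgeR adjusted p = 0.000284). Nfkb1 was at 555 and 649 CPM in WT Treg, against 361 and 426 CPM in Tconv (0.61, edgeR adjusted p = 9.83e-05). Birc3 was at 153 and 160 CPM in WT Treg, against 115 and 115 CPM in Tconv (0.44, edgeR adjusted p = 0.000354). These had no overlap between groups, which is not a test with 2 libraries in each. Traf1 (0.86, edgeR adjusted p = 0.00468), Nfkbie (0.70, 0.0138) and Nfkb2 (0.64, 0.0445) also passed, with libraries further apart within a group. Traf1 for example was at 232 and 344 CPM in WT Treg, against 115 and 203 CPM in Tconv.

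The spread behind these calls was pooled from all 26 libraries. In a fit to the 4 libraries of the comparison alone edgeR called 0 members, with adjusted p of 0.0999 for Rel, 0.204 for Nfkb1, 0.432 for Nfkb2, 0.25 for Nfkbie, 0.31 for Traf1 and 0.327 for Birc3. Of all genes tested in that fit 4.98% were called in either direction, 433 higher and 115 lower. A model with a term for the replicate number kept the 6 calls. It added Relb (0.66, edgeR adjusted p = 4.44e-07) and Bcl3 (0.60, 3.58e-05), where 34.1% of all tested genes were called in either direction. What the replicate numbers mark is not given in the labels. Without WT Treg 2 the calls of Nfkb2 (0.32, adjusted p = 0.378), Nfkbie (0.50, 0.134) and Traf1 (0.55, 0.0892) were lost. Without Tconv 1 those of Nfkb2 (0.36, adjusted p = 0.327), Nfkbie (0.48, 0.155) and Traf1 (0.50, 0.0806) were lost. Relb was gained without WT Treg 1 (0.98, adjusted p = 0.0182) or Tconv 2 (1.19, 0.00711), and Bcl3 without WT Treg 1 (0.86, 0.0262). The immediate early and stress genes summed to 9039 and 15551 CPM in WT Treg, against 5754 and 9761 CPM in Tconv, and their part in these differences was not tested.

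Rel, Nfkb1 and Birc3 were called higher in both comparisons of sorted Treg with conventional cells, and Relb, Nfkb1, Nfkb2 and Nfkbie in both comparisons between states, so that Nfkb1 was called in all 4. The calls of Nfkb1 and Relb between states were lost with no filter on low counts. Whether the lineage change of a gene exceeded its state change was tested through cTreg against Teff, a comparison added after the values were seen. Its log2 fold change equals that of cTreg over Tnaive minus that of Teff over Tnaive. Rel (0.69 ± 0.13, edgeR adjusted p = 0.00042), Birc3 (0.78 ± 0.08, 2.04e-07) and Bcl3 (0.63 ± 0.22, 0.0316) were higher in cTreg, 3 of 9 members, where 13.6% of all tested genes were higher. Nfkbie was lower (-0.56 ± 0.18, edgeR adjusted p = 0.0249), 1 of 9, where 19.3% were lower. Rel was at 65.4 and 63.1 CPM in cTreg, against 41.3 and 38.1 CPM in Teff. Nfkbie was at 52.6 and 52.9 CPM in cTreg, against 79.7 and 75.9 CPM in Teff. Relb (-0.50, adjusted p = 0.148), Nfkb1 (0.17), Nfkb2 (-0.14), Traf1 (0.18) and Rela (-0.002) were not called. The part of the other cell types' reads in Teff, higher than in cTreg for the lists given above, was not tested here either. Rel and Birc3 stayed called without any 1 library. Nfkbie and Bcl3 lost their calls without any of cTreg 1, cTreg 2, Teff 1 and Teff 2, with adjusted p of 0.0699 to 0.113 for Nfkbie (-0.59 to -0.52) and 0.0536 to 0.193 for Bcl3 (0.51 to 0.76).

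**Figure D4:**
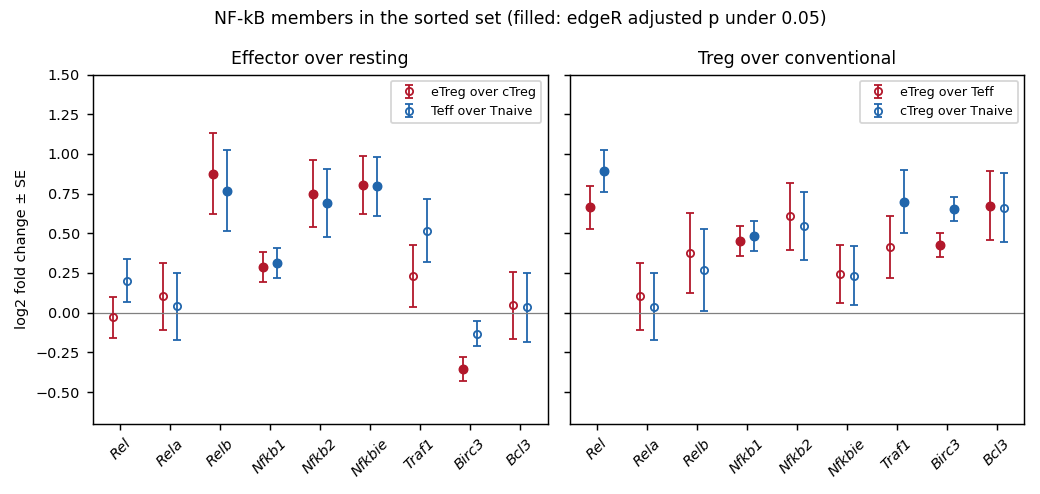
Log2 fold changes ± SE of the 9 members, for effector over resting cells (left: eTreg over cTreg and Teff over Tnaive) and Treg over conventional cells (right: eTreg over Teff and cTreg over Tnaive); filled points were called at an edgeR adjusted p under 0.05. Nfkbie stands at 0.80 and 0.79 on the left and Rel at 0.66 and 0.89 on the right, while Rela is called on neither side.

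The Foxp3 mutants ask which genes depend on the normal protein in cells that still express the Foxp3 reporter. In Foxp3R397W Treg, with a single amino acid change in the forkhead DNA-binding domain, Rel fell and the other 8 members were not called. That is 1 of 9 members lower, where 3.94% of all tested genes were lower and 2.18% higher, and the median log2 fold change was -0.31 over the members and -0.006 over all tested genes. Rel was at 74.1 and 100.4 CPM in Foxp3R397W Treg, against 136 and 153 CPM in its control (-0.73 ± 0.13, edgeR adjusted p = 0.00178). The mutant libraries lay below the control libraries, with the mutant library numbered 1 the lowest of the 4. Without that library the change was -0.49 and no longer called (adjusted p = 0.0746), and over all alternatives the adjusted p of Rel ran between 2.11e-05 and 0.0746. Nfkb2 was at 126 and 131 CPM in Foxp3R397W Treg, against 207 and 189 CPM in its control (-0.63 ± 0.22, edgeR adjusted p = 0.108). Relb was at 84.5 and 70.3 CPM in Foxp3R397W Treg, against 104 and 96.9 CPM in its control (-0.38 ± 0.26, edgeR adjusted p = 0.559). Neither change was called. The libraries of these genes did not overlap, which is not a test with 2 libraries in each group. Traf1 (-0.31), Nfkbie (-0.32), Nfkb1 (-0.15) and Birc3 (-0.11) had negative values as well, and Rela (-0.04) and Bcl3 (0.00) were near 0. A fit to the 4 libraries alone, which uses their own spread, called 4 members lower, namely Rel, Relb (adjusted p = 0.0125), Nfkb2 (7.19e-06) and Traf1 (0.0228). Of all genes tested in that fit 11.7% were called in either direction, 522 higher and 773 lower.

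In Foxp3KO Treg edgeR called 0 of 9 members, where 2.62% of all tested genes were higher and 6.39% lower. A total of 2 members had an unadjusted p under 0.05 and DESeq2 called 0. The median log2 fold change was -0.25 over the members and 0.011 over all tested genes. Rel was at 130 and 145 CPM in Foxp3KO Treg, against 170 and 165 CPM in its control (-0.28 ± 0.12, edgeR adjusted p = 0.202). Nfkbie was at 48.6 and 45.1 CPM in Foxp3KO Treg, against 58.3 and 68.5 CPM in its control (-0.44 ± 0.18, edgeR adjusted p = 0.165). Neither gene was called. Their libraries did not overlap between the groups, which is not a test with 2 libraries in each. Relb (-0.25), Nfkb2 (-0.27), Traf1 (-0.25), Bcl3 (-0.26) and Nfkb1 (-0.09) had negative values, and Birc3 had 0.04. These 4 libraries are the deepest of the series, with replicate correlations of 0.996, and a fit to them alone called 6 members lower. Of all genes tested in that fit 31.9% were called in either direction, 1916 higher and 2239 lower. The adjusted p was then 0.0019 for Rel, 0.00335 for Relb, 0.000894 for Nfkb2, 0.00215 for Nfkbie, 0.000688 for Traf1 and 0.00496 for Bcl3. The sizes of these changes, between -0.45 and -0.26, were close to those of the joint fit.

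The change of Rel was 0.44 ± 0.18 less negative in Foxp3KO Treg than in Foxp3R397W Treg (unadjusted p = 0.0237, adjusted p = 1). By edgeR 0 of 9 members were called for that difference, where 0.0164% of all tested genes were called, 1 had an unadjusted p under 0.05, and DESeq2 called 0. Lower totals of other gene groups went with both mutants. The 10 effector T cell genes (Icos, Tigit, Klrg1 and others) summed to 793 to 1250 CPM in Foxp3R397W Treg, against 1644 to 1698 CPM in its control, and to 685 to 822 CPM in Foxp3KO Treg, against 1502 to 1655 CPM in its control. The 10 Treg core genes summed to 2370 to 2386 CPM in Foxp3R397W Treg, against 4705 to 4786 CPM in its control, and to 1832 to 1900 CPM in Foxp3KO Treg, against 3714 to 3722 CPM in its control. The immediate early and stress genes were at 4530 to 8023 CPM in Foxp3R397W Treg, the library numbered 1 being the lower, against 6604 to 7809 CPM in its control. The part of these groups in the member values was not tested, and in bulk samples fewer cells of a type and less RNA per cell cannot be told apart.

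**Figure D5:**
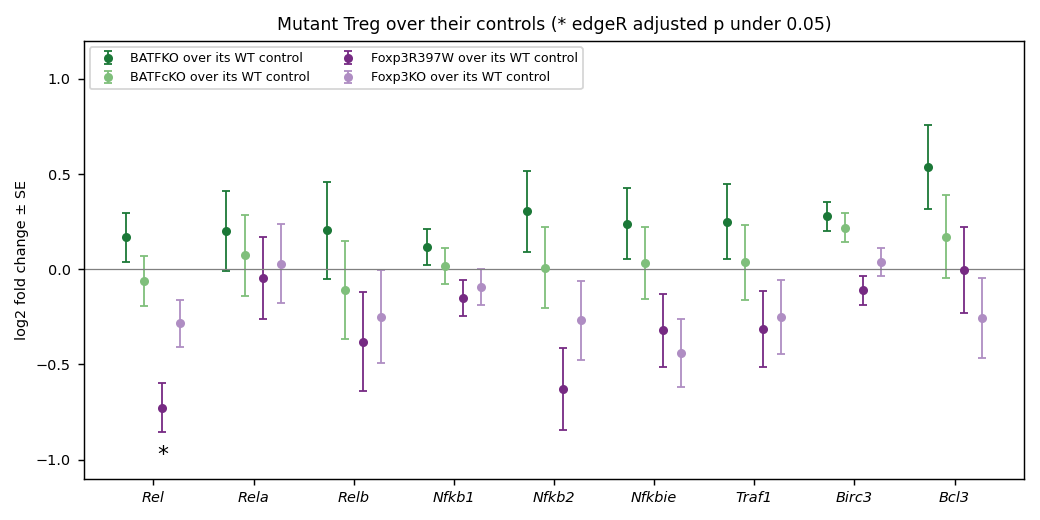
Log2 fold changes ± SE of the 9 members in the 4 mutant Treg groups against their own controls; an asterisk marks an edgeR adjusted p under 0.05. Rel in Foxp3R397W Treg (-0.73) is the sole marked value, and Birc3 is at 0.28 in BATFKO Treg and 0.22 in BATFcKO Treg YFP.

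The BATF mutants ask what depends on BATF, a bZIP partner of JUN proteins and IRF4 in effector T cells. In BATFKO Treg edgeR called 0 of 9 members, where 1.05% of all tested genes were higher and 1.64% lower. A total of 2 members had an unadjusted p under 0.05 and DESeq2 called 1, Birc3. A model with a term for the replicate number called 4 members higher, Nfkb2, Traf1, Birc3 and Bcl3, where 8.47% of all tested genes were called in either direction. The labels do not say what the replicate numbers mark. The median log2 fold change was 0.24 over the members and -0.004 over all tested genes. Birc3 was at 184 and 195 CPM in BATFKO Treg, against 153 and 160 CPM in WT Treg (0.28 ± 0.08, edgeR adjusted p = 0.0627; DESeq2 0.29, adjusted p = 0.00282). Bcl3 was at 61.9 and 116 CPM in BATFKO Treg, against 49.6 and 72.9 CPM in WT Treg (0.54 ± 0.22, edgeR adjusted p = 0.299). Birc3 did not overlap between the groups and Bcl3 did, and with 2 libraries in each group separation is not a test. Without BATFKO 1 Bcl3 was called (0.94, adjusted p = 0.00793). Rel was at 148 and 173 CPM in BATFKO Treg, against 138 and 148 CPM in WT Treg (0.17 ± 0.13, edgeR adjusted p = 0.763). Rela, Relb, Nfkb1, Nfkb2, Nfkbie and Traf1 had log2 fold changes between 0.12 and 0.30, none of which passed without the replicate term, with the groups overlapping in all 6. The immediate early and stress genes were at 7425 and 13133 CPM in BATFKO Treg, against 9039 and 15551 CPM in WT Treg, and their part was not tested.

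In BATFcKO Treg YFP edgeR again called 0 of 9 members, where 0.319% of all tested genes were higher and 1.72% lower. A total of 1 member had an unadjusted p under 0.05 and DESeq2 called 1, Birc3. The model with the replicate term also called 1, Birc3, where 9.12% of all tested genes were called in either direction. The median log2 fold change was 0.03 over the members and -0.015 over all tested genes. Birc3 was at 180 and 183 CPM in BATFcKO Treg YFP, against 155 and 158 CPM in WT Treg YFP (0.22 ± 0.08, edgeR adjusted p = 0.214; DESeq2 0.24, adjusted p = 0.0301). As in the germline mutant, no library overlapped between the groups for Birc3, which is not a test with 2 libraries in each. Bcl3 was at 91.7 and 93.2 CPM in BATFcKO Treg YFP, against 85.0 and 79.4 CPM in WT Treg YFP (0.17 ± 0.22, edgeR adjusted p = 0.889). Rel was at 84.4 and 71.9 CPM in BATFcKO Treg YFP, against 83.8 and 79.1 CPM in WT Treg YFP (-0.06). The difference between the 2 BATF mutants was tested for every gene and edgeR called 0 of 9 members, with 0 at an unadjusted p under 0.05, where 0% of all tested genes were called. DESeq2 called 0 members too, and the difference for Birc3 was 0.06 ± 0.11.

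Other genes of the pathway were taken from 5 lists, given here by their roles. The TNF receptor family includes costimulatory receptors that activate NF-kB, and its 8 members measured on T cells moved in most comparisons. In Foxp3R397W Treg 4 of 8 fell (list median -0.78, all tested genes -0.006) and in Foxp3KO Treg 6 of 8 fell (-0.99, all tested genes 0.011). Of all tested genes 3.94% were lower in Foxp3R397W Treg and 6.39% in Foxp3KO Treg. Tnfrsf9, which encodes 4-1BB, was at 48.5 ± 1.36 CPM in Foxp3R397W Treg and 141 ± 12.8 CPM in its control (SD, n = 2 each; -1.54 ± 0.18, edgeR adjusted p = 3.58e-05). Tnfrsf4, which encodes OX40, was at 71.7 ± 15.9 CPM in Foxp3R397W Treg and 181 ± 32.8 CPM in its control (-1.33 ± 0.21, edgeR adjusted p = 0.000471). In Foxp3KO Treg these genes fell by 1.31 and 1.18 on the log2 scale, to 47.5 CPM against 118 CPM and to 68.9 CPM against 156 CPM in its control. All of these calls stayed without any 1 library. The Treg core and effector T cell sums given above were lower in both Foxp3 mutants, and their part in these falls was not tested. In BATFKO Treg edgeR called 0 of 8, with 2 lower at an unadjusted p under 0.05 and 0 called by DESeq2, and in BATFcKO Treg YFP 1 of 8 fell, with 3 lower at an unadjusted p under 0.05 and 3 called lower by DESeq2. Of all tested genes edgeR called 1.05% higher and 1.64% lower in BATFKO Treg, and 0.319% and 1.72% in BATFcKO Treg YFP.

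In the sorted set, 5 of 8 TNF receptor genes rose and 1 fell both in eTreg against cTreg (list median 0.83) and in Teff against Tnaive (1.26), while 6 of 8 rose in cTreg against Tnaive (1.56) and 6 of 8 rose and 1 fell in eTreg against Teff (1.67). In WT Treg against Tconv 7 of 8 rose and 1 fell (2.30). The Treg core sums were also higher in these Treg groups than in the conventional groups, and their part was not tested. Medians over all tested genes were between -0.002 and 0.009 in these 5 comparisons. Of all tested genes 18.8% were higher and 12.3% lower in eTreg against cTreg, and 21.2% and 14.0% in Teff against Tnaive. The shares were 7.91% and 4.29% in cTreg against Tnaive, 8.21% and 7.26% in eTreg against Teff, and 12.1% and 6.68% in WT Treg against Tconv. Tnfrsf9 had log2 fold changes of 1.78 in eTreg against cTreg, 2.09 in Teff against Tnaive, 3.05 in cTreg against Tnaive and 2.74 in eTreg against Teff. Its level was 228 ± 30.3 CPM in eTreg, 66.5 ± 1.29 CPM in cTreg, 34.1 ± 2.81 CPM in Teff and 8.0 ± 2.24 CPM in Tnaive (SD, n = 2 each), so it differed along both axes and stayed called without any 1 library.

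The list of other known NF-kB targets had 21 tested genes. In Foxp3R397W Treg 6 of 21 fell (list median -0.21) and in Foxp3KO Treg 6 of 21 fell (-0.26), where 3.94% and 6.39% of all tested genes were lower. Cd83, a surface marker of activated lymphocytes, was at 26.4 ± 7.35 CPM in Foxp3R397W Treg and 105 ± 0.0240 CPM in its control (-2.0 ± 0.23, edgeR adjusted p = 3.58e-05), and at 25.1 ± 0.776 CPM in Foxp3KO Treg and 101 ± 5.69 CPM in its control (-2.02 ± 0.21, edgeR adjusted p = 7.65e-06). Ebi3, a subunit of interleukin 27 and 35, fell by 2.44 and 2.48 on the log2 scale in the same mutants, and Bcl2l1, which encodes the survival protein Bcl-xL, by 0.93 and 0.72. In BATFKO Treg 2 rose and 1 fell (list median 0.14), and in BATFcKO Treg YFP 1 rose and 2 fell (-0.10). Of all tested genes 1.05% were higher and 1.64% lower in BATFKO Treg, and 0.319% and 1.72% in BATFcKO Treg YFP. Cd83 fell in both BATF mutants, to 46.5 ± 4.53 CPM in BATFKO Treg, against 125 ± 10.7 CPM in WT Treg (log2 fold change -1.42, edgeR adjusted p = 0.000909), and to 28.9 ± 2.11 CPM in BATFcKO Treg YFP, against 92.6 ± 6.35 CPM in WT Treg YFP (-1.68, edgeR adjusted p = 0.000354). Irf4, the partner of BATF, rose in BATFKO Treg, at 299 ± 16.9 CPM against 165 ± 2.4 CPM in WT Treg (log2 fold change 0.85, edgeR adjusted p = 0.000424). It was not called in BATFcKO Treg YFP, at 134 CPM against 107 CPM in WT Treg YFP (0.32, edgeR adjusted p = 0.285). The effector T cell genes summed to 569 to 715 CPM in BATFKO Treg, against 1462 to 1552 CPM in WT Treg, and to 370 to 375 CPM in BATFcKO Treg YFP, against 1188 to 1374 CPM in WT Treg YFP. The 10 stromal genes summed to 27.0 to 39.3 CPM in BATFKO Treg, against 4.62 to 5.78 CPM in WT Treg, and the B cell genes to 37.5 to 44.5 CPM against 19.7 to 26.8 CPM in WT Treg. The stromal sum in BATFKO Treg was mostly Igfbp7 (13.1 and 15.8 CPM), Lamb1 (5.88 and 14.5 CPM) and Fn1 (6.41 and 7.16 CPM), with Col3a1 and Pdgfra at 0. The part of these groups in the BATF mutant values was not tested. In a fit to the 4 germline libraries alone the BATFKO calls were lost, with an adjusted p of 0.162 for Cd83 and 0.423 for Irf4. Of all genes tested in that fit 0% were called.

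Between states, 11 of the 21 targets rose and 3 fell in eTreg against cTreg, where 18.8% of all tested genes were higher and 12.3% lower. The 11 include Il2 and Ier3, which were barely counted. Il2 was at 0.24 CPM in eTreg against 0 CPM in cTreg, and Ier3 at 0.72 CPM against 0.14 CPM. DESeq2 called 9 higher and 3 lower in eTreg against cTreg. In Teff against Tnaive 12 rose and 3 fell, where 21.2% were higher and 14.0% lower. Cd83 had log2 fold changes of 3.12 and 4.83 in these comparisons, and Irf4 of 1.71 and 2.53, whereas Myc, the growth regulator, fell by 1.65 and 1.49. Between lineages, 11 rose in cTreg against Tnaive (all tested genes 7.91% higher, 4.29% lower), 8 rose and 2 fell in eTreg against Teff (8.21% and 7.26%), and 10 rose and 1 fell in WT Treg against Tconv (12.1% and 6.68%). Il2ra, the high affinity interleukin 2 receptor chain, had log2 fold changes of 7.69, 2.76 and 6.20 there. Il2ra is also a defining marker of Treg and was among the Treg core genes above, so its list is not free of lineage markers.

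Of the 12 IkB and feedback inhibitors, 4 rose and 1 fell in eTreg against cTreg, where 18.8% of all tested genes were higher and 12.3% lower. In Teff against Tnaive 3 rose, where 21.2% of all tested genes were higher. A total of 2 rose in cTreg against Tnaive, 1 rose in eTreg against Teff and 4 rose in WT Treg against Tconv, where 7.91%, 8.21% and 12.1% of all tested genes were higher. All of these counts but that of eTreg against Teff include Tnip3, which was barely counted. Tnip3 was at 2.59 CPM in eTreg, 0.63 CPM in cTreg, 1.37 CPM in Teff and 0.10 CPM in Tnaive. It was at 1.18 CPM in WT Treg and 0 CPM in Tconv. DESeq2 called 1 inhibitor higher in cTreg against Tnaive and 2 in eTreg against Teff. N4bp1, a suppressor of NF-kB activation, was at 162 ± 0.417 CPM in eTreg and 75.6 ± 5.94 CPM in cTreg (1.10 ± 0.10, edgeR adjusted p = 7.96e-08), and was also higher in eTreg than in Teff (0.95). Nfkbia, the gene for IkB alpha, was at 1030 ± 157 CPM in WT Treg and 477 ± 37.0 CPM in Tconv (1.11 ± 0.21, edgeR adjusted p = 0.000824). Across the 4 mutants edgeR called 1 of the 12, lower in Foxp3KO Treg, where 6.39% of all tested genes were lower. The inhibitors with an unadjusted p under 0.05 were 2, 1, 3 and 4 in BATFKO, BATFcKO, Foxp3R397W and Foxp3KO Treg. DESeq2 also called 1, in Foxp3KO Treg.

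Of the 15 genes of the IKK complex and antigen receptor adaptors, 3 rose and 3 fell in eTreg against cTreg (all tested genes 18.8% higher, 12.3% lower), and 2 rose and 2 fell in Teff against Tnaive (21.2% and 14.0%). These counts are near the shares over all tested genes. Malt1, which encodes a paracaspase of antigen receptor signalling, was at 341 ± 49.3 CPM in eTreg and 121 ± 3.06 CPM in cTreg (1.5 ± 0.15, edgeR adjusted p = 4.3e-07). Prkcq, which encodes protein kinase C theta of the T cell receptor pathway, was at 311 ± 5.35 CPM in eTreg and 567 ± 11.6 CPM in cTreg (-0.87 ± 0.08, edgeR adjusted p = 1.33e-07). Between lineages 1 of 15 fell in cTreg against Tnaive, 2 in eTreg against Teff and 3 in WT Treg against Tconv. Of all tested genes 4.29%, 7.26% and 6.68% were lower in these comparisons. Of the 6 tested genes of the non-canonical route, 2 rose (Cd40 and Traf2) and 1 fell (Map3k14) in eTreg against cTreg, and 2 rose (Cd40 and Tnfrsf13c) and 1 fell (Map3k14) in Teff against Tnaive. The shares over all tested genes are those given for the IKK list. Cd40 and Tnfrsf13c, receptors known from B cells, were barely counted. Cd40 was at 1.34 ± 0.40 CPM in eTreg against 0.14 ± 0.20 CPM in cTreg, and at 0.66 ± 0.17 CPM in Teff against 0.05 ± 0.07 CPM in Tnaive (SD, n = 2 each). Tnfrsf13c was at 2.09 ± 0.50 CPM in Teff and 0.55 ± 0.35 CPM in Tnaive. The B cell gene sums given above were also higher in eTreg and Teff, mostly through Cd22. Ms4a1 overlapped between eTreg and cTreg and was higher in Teff than in Tnaive. The part of B cell reads in these rises was not tested. Map3k14, the NIK kinase gene, was at 82.2 ± 2.30 CPM in eTreg and 126 ± 0.0064 CPM in cTreg (-0.62, edgeR adjusted p = 0.0228). Between lineages 1 rose in eTreg against Teff (Birc2) and 1 in WT Treg against Tconv (Cd40, listed at 0 in both Tconv libraries). Of all tested genes 8.21% and 12.1% were higher in these comparisons. In the 4 mutants edgeR called 0 genes of either list, where 0.319% to 2.62% of all tested genes were higher and 1.64% to 6.39% lower. At an unadjusted p under 0.05 there were 2 and 3 IKK list genes in Foxp3R397W and Foxp3KO Treg, and DESeq2 called 1 in each of them. The non-canonical list had 2 and 1 such genes in BATFKO and Foxp3R397W Treg, of which DESeq2 called 1, in BATFKO Treg.

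The members were also compared with every tested gene with a mean of at least 5 CPM, by Pearson correlation of log2 CPM over the 26 libraries after centring on the mean of each sort set. These are descriptions, since libraries of a group share their cell type and libraries of a set their sorting. Among the 36 pairs of members the median r was 0.74 and 30 pairs were above 0.5. No such figures are given for pairs of other genes, so these do not show that members are more alike than other genes. The lowest pair was Rel with Rela (0.24) and the highest Nfkb1 with Traf1 (0.95). Nfkb2 was most like Relb (0.94), followed by Isg20 and Abcc1, and Traf1 was most like Mapkapk2, Nfkb1 and Isg20 (0.95 each). Nfkb1 was most like Cul7 (0.98), Capg and Tnfrsf4 (0.97 each), and Nfkbie like Icam1, Ergic3 and Coro1b (0.95 each). Relb was most like Il3ra, Coro1b and Lrp10 (0.96 to 0.97). Rel was most like Ypel2, Tmem158 and Gltscr1l (0.93 each), Rela like Phc2, Nfkbib and Pom121 (0.92 to 0.95), Birc3 like Lad1, Samhd1 and Ppm1l (0.95 to 0.97), and Bcl3 like Zmiz2, Prodh and Tgfb1 (0.89 to 0.90).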

How the data were processed

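Poly(A) RNA-seq values were read counts per gene, deposited by the authors as whole numbers, 1 column per library. The submitters' processing notes name STAR 2.6.1c and mm10. The counting tool and strand setting are not given in the sources used here, so genes that overlap others are uncertain, and so are Birc3 and Birc2, which are close paralogs. Of 30 columns, 4 matched no label and were not used.

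Counts were tested with edgeR 4.0.16 (limma 3.58.1, R 4.3.3; DESeq2 1.42.0 as an alternative). The expression filter (minimum count 10, minimum total 15) kept 12227 genes and removed 12184, and in each library these took up 99.9% of reads or more. After TMM scaling, all 26 libraries entered 1 quasi-likelihood model (robust, 1 mean per group, 13 residual degrees of freedom), and p-values were adjusted by Benjamini-Hochberg over all tested genes with a threshold of 0.05. The SE was approximated from each log2 change and its F statistic. There were 10 comparisons and 3 differences of comparisons. Scripts were tested on simulated data. Gene lengths came from GENCODE M21 (mm10) and promoters from RefSeq (GRCm38.p6).

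The members and lists were chosen with earlier results of these data known. The 9 members, Foxp3 and Batf were always named; from each pathway list up to 3 called genes with the smallest p in each direction, and up to 2 uncalled, could be named; and the 3 genes most like each member, leaving out predicted models. Replicate numbers were not part of the model. Alternatives were other scalings, no filter, DESeq2, subsets of the libraries, leaving out each library, a replicate block and another gene length.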

Additional observations from a re-analysis of the deposited data

Results flagged for a closer look

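Among the pathway lists, 8 genes differed in their effector change between Treg and conventional cells, by the test of eTreg over cTreg minus Teff over Tnaive. No member was among them, and 5.42% of all tested genes were called in that test. N4bp1 was at 163 and 162 CPM in eTreg against 79.8 and 71.4 CPM in cTreg (1.10), and at 84.0 and 83.9 CPM in Teff against 76.5 and 66.9 CPM in Tnaive (0.23), a difference of 0.87 (edgeR adjusted p = 0.000465). Il2ra was at 425 and 343 CPM in eTreg against 651 and 665 CPM in cTreg (-0.78), and at 69.5 and 44.0 CPM in Teff against 3.87 and 2.50 CPM in Tnaive (4.15), a difference of -4.93 (edgeR adjusted p = 1.47e-07). Tnf changed by 0.66 in Treg and 1.46 in conventional cells, a difference of -0.81 (edgeR adjusted p = 0.0251). These 3 differences stayed called without any 1 library.

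The others were lost on leaving out a library. Irf4 changed by 1.71 and 2.53 (difference -0.82, edgeR adjusted p = 0.0104) and was lost without cTreg 2 (-0.68, 0.0784), Tnaive 1 (-0.76, 0.0703) or Teff 2 (-0.65, 0.0637). Cd83 changed by 3.12 and 4.83 (difference -1.72, edgeR adjusted p = 0.0219) and was lost without cTreg 2 (-1.60, 0.0763), eTreg 1 (-1.60, 0.0657), Tnaive 1 (-1.91, 0.083), Tnaive 2 (-1.55, 0.168) or Teff 2 (-1.18, 0.0662). Tnfrsf4 changed by 1.11 and 2.19 (difference -1.08, edgeR adjusted p = 0.0408) and was lost without any of the 8 libraries other than Teff 1 (adjusted p 0.0811 to 0.228, differences -1.17 to -0.78). Cd27 changed by 0.13 and -0.45 (difference 0.58, edgeR adjusted p = 0.0204) and was lost without any of them other than Teff 2 (0.0515 to 0.148, differences 0.45 to 0.62). Tnfrsf25 changed by -0.39 and 0.31 (difference -0.7, edgeR adjusted p = 0.0487) and was lost without each of the 8 (0.0659 to 0.18, differences -0.76 to -0.64). The part of the other cell types' reads in the Teff libraries was not tested.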

How the results depend on the processing

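No value with a call changed sign under the alternatives tried. Counts of called members within 1.5 times those reported were found with RLE size factors, library totals, and without the Foxp3KO set in every comparison, and with no filter in all but eTreg against cTreg (3) and Teff against Tnaive (2). DESeq2 called 1 member in BATFKO Treg and 1 in BATFcKO Treg YFP. Fits to the libraries of a comparison alone called 4 members in Foxp3R397W Treg, 6 in Foxp3KO Treg, 7 in cTreg against Tnaive and 0 in WT Treg against Tconv. Of the genes tested in those fits, 0% were called in BATFKO Treg, 11.7% in Foxp3R397W Treg, 31.9% in Foxp3KO Treg, 49.8% in eTreg against cTreg, 25.9% in cTreg against Tnaive and 4.98% in WT Treg against Tconv.

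Single calls also changed: Nfkb2 in WT Treg against Tconv was lost with RLE size factors (adjusted p = 0.0618) or no filter (0.122), and Bcl3 in eTreg against Teff with no filter (0.0927). With no filter Relb and Nfkb1 were also lost in eTreg against cTreg (0.067 and 0.297) and in Teff against Tnaive (0.0951 and 0.14). Without the Foxp3KO set, Nfkb1 in eTreg against cTreg (0.11), Bcl3 in eTreg against Teff (0.0743) and Nfkb2 in WT Treg against Tconv (0.0787) were lost. Bcl3 in cTreg against Tnaive was gained with DESeq2 (0.0394) and library totals (0.0383), and Nfkb2 in eTreg against Teff (0.0375) and Traf1 in Teff against Tnaive (0.0165) with library totals. The cause was not tested, other than that fits to fewer libraries use their own spread.

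Leaving out 1 library gave 0 to 1 called members in BATFKO Treg, 0 to 0 in BATFcKO Treg YFP, 0 to 1 in Foxp3R397W Treg, 0 to 0 in Foxp3KO Treg, 2 to 4 in eTreg against cTreg, 1 to 3 in Teff against Tnaive, 3 to 3 in cTreg against Tnaive, 2 to 3 in eTreg against Teff, 2 to 2 in cTreg against Teff and 3 to 8 in WT Treg against Tconv. The share of tested genes called was then 1.38% to 2.93%, 0.556% to 1.28%, 2.56% to 3.16%, 3.28% to 5.61%, 21.5% to 24.6%, 26.7% to 28.5%, 7.87% to 8.34%, 9.49% to 12.2%, 23.3% to 25.8% and 15.2% to 16.3% in the same order; a lone library is assumed to vary like the other groups.

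Replicate numbers are shared between groups of the germline, YFP and sorted sets, and nothing says that they mark a shared animal or day. Deviations of libraries with the same number correlated at 0.50 to 0.57 in the germline set, 0.24 in the YFP set and 0.08 to 0.23 in the sorted set. With the replicate block, called members were 4 in BATFKO Treg, 1 in BATFcKO Treg YFP, 7 in cTreg against Tnaive, 8 in eTreg against Teff, 7 in cTreg against Teff and 1 for the difference of the effector changes. In WT Treg against Tconv the block kept the 6 calls and added Relb and Bcl3. Traf1 was added in eTreg against cTreg and in Teff against Tnaive. Shares of tested genes called with it were 8.47% in BATFKO Treg, 9.12% in BATFcKO Treg YFP, 48.9% in eTreg against cTreg, 53% in Teff against Tnaive, 23.7% in cTreg against Tnaive, 29.5% in eTreg against Teff, 50% in cTreg against Teff and 34.1% in WT Treg against Tconv. No block was fitted for the Foxp3 mutants, whose numbers differ from those of their controls. The lowest count of a member in any library was 193, and calls were not tested against depth.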
